A study of Mus musculus with 7 samples.

Results

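Proteins that are secreted or placed in a membrane are made at the endoplasmic reticulum (ER), and the genes described here encode the machinery that brings them in. The signal recognition particle (SRP) binds the signal sequence of a growing chain and hands the ribosome to its receptor in the ER membrane. The chain then passes through the Sec61 channel with the help of Sec62, Sec63 and the translocon-associated protein (TRAP) complex. Signal peptidase cuts the signal sequence off, and the oligosaccharyltransferase (OST) moves a preassembled sugar tree from the lipid dolichol to asparagine residues. In the brain this route supplies receptors, ion channels, adhesion molecules and secreted peptides.

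The genes were chosen by symbol, as 34 named members of these complexes, out of 24346 genes in the table. They comprised 8 genes for SRP and its receptor, 8 for the Sec61 channel and its partners, 4 for TRAP, 5 for signal peptidase and 9 for OST. All 34 were in the table, and all of them were among the 12988 genes tested, which had a mean of at least 1 FPKM (fragments scaled to exon length and to the mapped reads of the library). Cortical RNA came from 4 CrT-/y (KO) males, which lack exons 5 to 7 of the creatine transporter gene Slc6a8 on their only X chromosome, and from 3 CrT+/y (WT) littermates. All animals were at postnatal day 100 and on a C57BL/6J background. The deletion was in the whole body, and each animal gave 1 library of unsorted cortex, so that fewer cells of a type and less RNA per cell cannot be told apart. The comparison asks how these genes differ in cortex without the creatine transporter. KO animals carry the numbers 0 to 3 and WT animals 1 to 3.

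Slc6a8 checked the labels. It was at 12.4, 14.9, 14.7 and 15.7 FPKM in KO animals 0 to 3 and at 32.3, 29.6 and 28.0 FPKM in WT animals 1 to 3 (two-sided exact permutation p = 0.0286, the floor for 4 against 3 animals). The value counts reads from the whole gene, so that exons outside the deletion contribute to it. Depth is known from FPKM only in relative terms. Judged from 2608 weakly expressed genes, it was 0.901 to 1.25 times that of KO animal 0 in KO and 0.871 to 1.08 times in WT animals. Array weights, which fall with an animal's distance from its group, were lower in WT than in KO animals. limma gave WT animal 3 the lowest weight, 0.339, against 0.704 and 0.775 for the other WT and 1.24 to 1.87 for the KO animals. WT animal 2 stood apart in 8 choroid plexus and ependyma markers, with a summed level of 398.8 FPKM against 8.84 to 55.6 FPKM in the other 6 animals. The markers of cortical excitatory neurons (summed level 726 to 811 FPKM in KO and 724 to 879 FPKM in WT), of oligodendrocytes (854 to 1310 and 1186 to 1557 FPKM), of oligodendrocyte precursors (23.9 to 27.0 and 26.4 to 31.1 FPKM), of microglia (179 to 189 and 177 to 190.1 FPKM) and of inhibitory neurons (842 to 981 and 907 to 926 FPKM) overlapped between genotypes, as did those of endothelial cells (100.1 to 117 and 116 to 135 FPKM). The 6 astrocyte markers summed to 605.0 to 671.3 FPKM in KO and to 672.5 to 734.8 FPKM in WT animals. These sums just missed overlapping, and none of the 6 was called by limma. Markers of olfactory bulb (6.75 to 18.7 and 3.73 to 7.16 FPKM), striatum (132 to 327 and 75.2 to 284 FPKM) and blood (21.1 to 56.3 and 37.2 to 72.5 FPKM) varied within both genotypes. Among the single markers, 2 of 6 for excitatory neurons, Neurod6 among them, and 3 of 6 for endothelial cells (Pecam1, Flt1 and Ly6c1) were called lower, and Gad1 of inhibitory neurons and Cdhr1 of olfactory bulb higher (limma, adjusted p under 0.1). No marker of these lists was at 0 FPKM in all animals. Their part in the results was not tested.

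Among the ER import genes, 8 fell and 1 rose in KO cortex at an adjusted p-value under 0.1 (limma). Those that fell were Srp68 and Srpr of the SRP system, Sec62 and Bcap31 at the channel, Sec11c of signal peptidase, and Rpn1, Stt3b and Krtcap2 of OST. The gene that rose was Ssr4 of TRAP. The changes were small, with KO levels at 74.3% to 87.8% of the WT level for the genes that fell and at 132.9% for Ssr4. The genes that fell were 23.5% of the 34, against 7.25% of all tested genes called lower, and the gene that rose was 2.94%, against 2.90% called higher. The 34 were chosen with earlier results of these data known, so that a share above that of all genes may owe to the choice. Every KO animal was below every WT animal in 14 of the genes (41.2%) and above in 2 (5.88%), where the shares over all tested genes were 15.0% and 6.57%. The median log2 fold change was -0.11 over the 34 genes and -0.03 over all tested genes, with 22 of the 34 lower and 12 higher in KO. After quantile normalization, upper quartile scaling and median centring the median of the 34 genes was -0.05, -0.05 and -0.07. That of all tested genes was then -0.002, 0.03 and 0.004. Called then were 3 lower and 2 higher of the 34 after quantile normalization (555 and 528 of all tested genes). The counts were 3 and 2 (463 and 741) after upper quartile scaling and 4 and 1 (527 and 490) after median centring. Srp68, Srpr, Sec11c and Stt3b were not called under any of these scalings. Signed values in parentheses are log2 fold changes, KO minus WT, on the log2(FPKM + 0.1) scale.

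2 sequences are shown because they bear on the genes with the most stable calls, Ssr4 and Krtcap2. Both are from RefSeq on GRCm38.p6 and read 5′ to 3′ on the plus strand. Ssr4 on chromosome X starts next to Idh3g, which encodes a subunit of the mitochondrial isocitrate dehydrogenase and runs on the minus strand. In the stretch at chrX:73786888-73787032, the capitals mark the 125 bases between the RefSeq starts of both genes. In the stretch at chr3:89246480-89246509, the capitals mark 11 bases just inside the RefSeq start of Krtcap2 that match the ER stress response element II (ERSE-II). The GENCODE annotation starts the gene farther upstream, at chr3:89245966, so that there the whole RefSeq window lies inside the gene.
Idh3g to Ssr4: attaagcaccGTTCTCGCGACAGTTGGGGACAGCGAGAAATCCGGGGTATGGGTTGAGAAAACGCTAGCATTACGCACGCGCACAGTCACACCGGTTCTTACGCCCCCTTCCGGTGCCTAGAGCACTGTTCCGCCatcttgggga
Krtcap2: agggacacggATTGGACCACGgacggggcg

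Elements of this kind are known to be bound by factors of the unfolded protein response. RefSeq windows of 300 bases, 250 before and 50 after the start, were at hand for 25 of the 34 genes. ERSE-II, ATTGGNCCACG on either strand, was in the window of Krtcap2 at positions 18 to 28 from the start base and in none of the other 24. Over all 32851 windows of the table it was in 12 (0.0365%), which belong to 12 of 27025 genes (0.0444%). ERSE, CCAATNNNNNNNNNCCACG, was in 39 windows (0.119%) of 37 genes (0.137%). The UPRE core, TGACGTGG, was in 222 windows (0.676%) of 193 genes (0.714%). Both were in none of the 25 genes. The letters CCACG, or their reverse complement, are part of all 3 patterns, so that matches can overlap. A match is a description of letters and was not tested as a binding site.

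**Figure D1:**
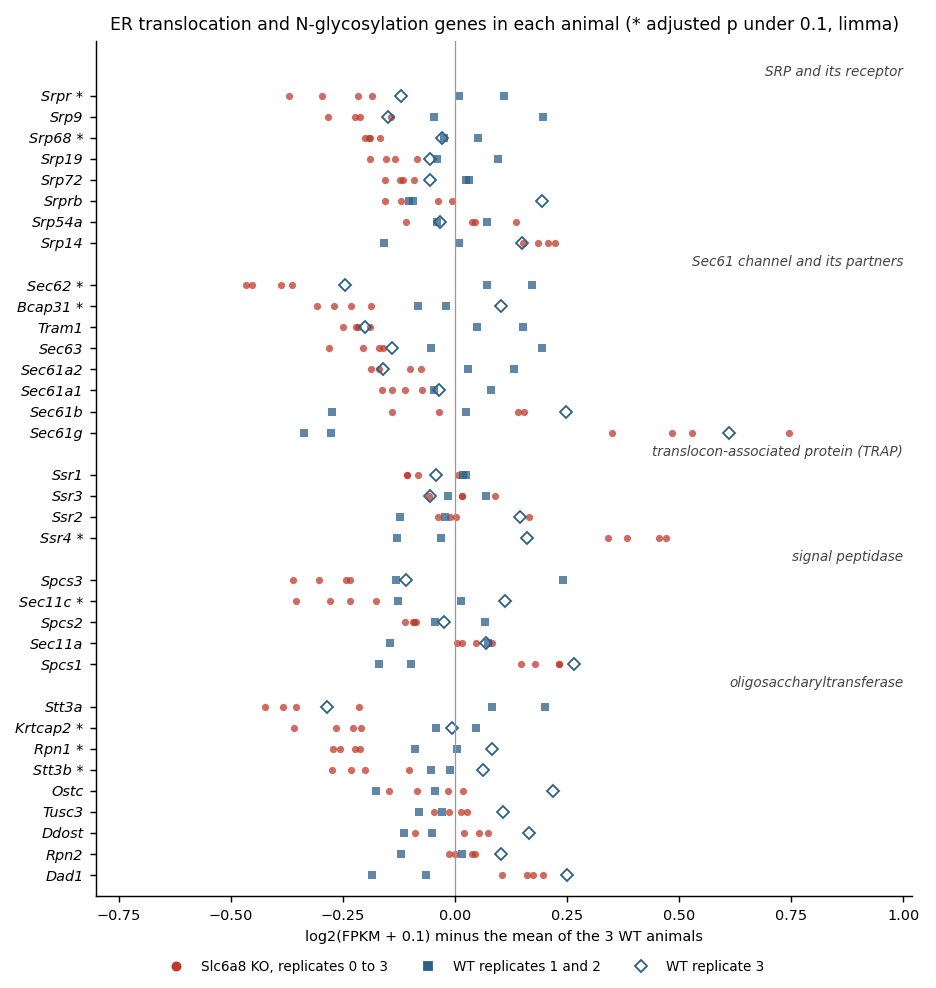
Each of the 34 genes (rows, grouped by complex) in each of the 7 animals, as log2(FPKM + 0.1) minus the mean of the 3 WT animals. Red points are KO animals, blue squares WT animals 1 and 2, and open diamonds WT animal 3; an asterisk marks an adjusted p under 0.1 (limma). The red points lie left of every blue symbol in 14 rows and right of every blue symbol in 2. For Stt3a and Sec61g the open diamond lies among the red points.

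The SRP genes that fell were Srp68, whose product holds the particle's RNA together with Srp72, and Srpr, the receptor subunit that binds SRP and GTP. Srp68 (chr11:116245166-116274217) was at 25.9, 25.8, 26.3 and 25.9 FPKM in KO animals 0 to 3 and at 30.7, 29.1 and 29.0 FPKM in WT animals 1 to 3. The KO animals were nearly level with each other and below all WT animals. Mean levels were 26.0 ± 0.251 FPKM in KO (SD, n = 4) and 29.6 ± 0.935 FPKM in WT (SD, n = 3), a log2 fold change of -0.19 (standard error 0.049, adjusted p = 0.066 with limma). Srpr (chr9:35200175-35247973) was at 24.7, 21.7, 24.2 and 22.9 FPKM in KO and at 28.3, 30.4 and 25.9 FPKM in WT animals. Again no KO animal reached the lowest WT animal, which was number 3. The estimated log2 fold change was -0.27 (limma, standard error 0.072, adjusted p = 0.070).

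Srp72 and Srp19, which bind the particle's RNA, and Srp14 did not overlap between genotypes but were not called. Srp72 was at 27.2, 26.8, 26.6 and 26.0 FPKM in KO and at 29.7, 29.5 and 27.9 FPKM in WT animals (log2 fold change -0.12 and adjusted p = 0.18 with limma). Srp19 was at 26.8, 24.9, 25.8 and 25.5 FPKM in KO and at 30.3, 27.6 and 27.3 FPKM in WT animals (-0.14, adjusted p = 0.18 with limma). Srp14 and Srp9 form the domain that slows the ribosome while it is being targeted. Srp14 was at 85.9, 88.2, 87.3 and 84.0 FPKM in KO and at 76.1, 67.7 and 83.9 FPKM in WT animals, higher in every KO animal but only just above WT animal 3 (0.19, adjusted p = 0.14 with limma). Its partner Srp9 was at 60.5 ± 2.42 FPKM (SD, n = 4) in KO and 70.6 ± 8.86 FPKM (SD, n = 3) in WT, with a log2 fold change of the opposite sign, -0.21, and overlapping groups. Srprb, the membrane-bound receptor subunit, was at 9.95 ± 0.487 and 10.6 ± 1.29 FPKM (-0.08).
Srp54a, the subunit that binds the signal sequence, had the lowest mean of all 34 genes, 5.62 FPKM. It was at 6.11, 5.70, 5.73 and 5.13 FPKM in KO and at 5.84, 5.40 and 5.42 FPKM in WT animals, which overlapped throughout. Its near-identical copies make this value uncertain: Srp54b was listed at 0 FPKM in all animals, and Srp54c was at 10.7 to 12.8 FPKM in KO and 11.1 to 15.3 FPKM in WT animals.

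At the channel, Sec62 and Bcap31 fell. Sec62 binds Sec63 and serves the import of short or weakly targeted chains, and Bcap31 is a membrane chaperone and sorting factor found at the translocon. Sec62 (chr3:30792875-30821263) was at 51.5, 48.7, 52.4 and 49.2 FPKM in KO and at 75.9, 70.9 and 56.9 FPKM in WT animals. The KO animals were within a narrow band below all WT animals, and WT animal 3 was the nearest to them. Mean levels were 50.5 ± 1.76 FPKM in KO (SD, n = 4) and 67.9 ± 9.88 FPKM in WT (SD, n = 3), a log2 fold change of -0.42 (standard error 0.092, adjusted p = 0.048 with limma), the largest fall of the 34 genes. Bcap31 (chrX:73686178-73716175) was at 30.7, 32.5, 29.9 and 31.5 FPKM in KO and at 34.98, 36.56 and 39.78 FPKM in WT animals. Here WT animal 3 was the farthest from the KO animals. The estimated log2 fold change was -0.25 (limma, standard error 0.060, adjusted p = 0.059).

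The pore-forming subunit exists as Sec61a1 and Sec61a2, and neither was called. Sec61a1 was at 21.6, 21.9, 23.0 and 22.4 FPKM in KO and at 23.4, 25.6 and 23.6 FPKM in WT animals, a small gap without overlap (-0.12, adjusted p = 0.21 with limma). Sec61a2 was at 26.2, 25.9, 28.0 and 27.5 FPKM in KO and at 32.3, 30.1 and 26.4 FPKM in WT animals, where WT animal 3 lay among the KO animals (-0.13, adjusted p = 0.29 with limma). Sec63, a J-domain partner of the luminal chaperone BiP, was at 20.5, 20.6, 18.9 and 20.0 FPKM in KO and at 26.4, 22.2 and 20.9 FPKM in WT animals. These groups did not overlap, with WT animal 3 just above the KO animals (-0.20, adjusted p = 0.17 with limma). Tram1, which helps chains enter the membrane, was at 13.0 ± 0.229 FPKM (SD, n = 4) in KO and 15.3 ± 1.88 FPKM (SD, n = 3) in WT (-0.22, adjusted p = 0.15 with limma). The small subunits had values in the other direction. Sec61g was at 11.0 ± 1.29 in KO and 7.96 ± 3.19 FPKM in WT, a log2 fold change of 0.53 (standard error 0.21, adjusted p = 0.17 with limma), the largest positive value of the 34 genes, with WT animal 3 at 11.6 FPKM inside the KO range. Sec61b was at 33.7 ± 3.29 and 33.3 ± 5.93 FPKM (0.03).

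TRAP binds the channel and the ribosome and aids the entry of chains with weak signal sequences. Ssr4, its delta subunit, was the only gene of the 34 called higher in KO. It was at 36.6, 40.0, 39.6 and 37.7 FPKM in KO and at 26.4, 28.2 and 32.3 FPKM in WT animals. Every KO animal was above every WT animal, with WT animal 3 the highest of its group. On average Ssr4 was at 38.5 ± 1.63 FPKM in KO (SD, n = 4) and 28.9 ± 3.01 FPKM in WT (SD, n = 3), a log2 fold change of 0.41 (standard error 0.074, adjusted p = 0.032 with limma). The other 3 subunits overlapped between genotypes. Ssr1 was at 23.4 ± 0.894 FPKM (SD, n = 4) in KO and 24.6 ± 0.634 FPKM (SD, n = 3) in WT (-0.07), Ssr2 at 35.1 ± 2.30 and 34.4 ± 3.27 FPKM (0.03), and Ssr3 at 60.3 ± 2.54 and 59.6 ± 2.67 FPKM (0.02). The 95% intervals of these log2 fold changes were -0.19 to 0.05, -0.14 to 0.20 and -0.11 to 0.14, and that of Ssr4 was 0.25 to 0.58. Whether Ssr4 differs from its partner subunits was not tested.

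**Figure D2:**
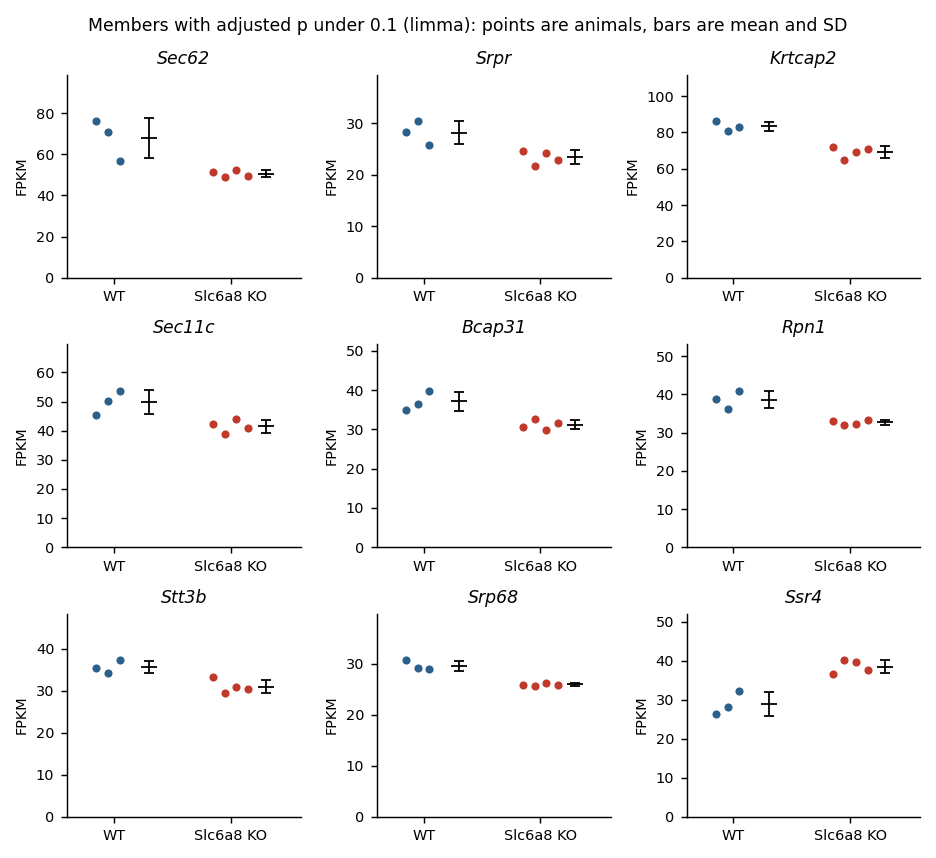
FPKM of the 9 genes with an adjusted p under 0.1 (limma) in each of the 3 WT (blue) and 4 KO (red) animals, with mean and SD as bars beside the points; each axis starts at 0. In 8 panels all red points are below all blue points, and for Ssr4 they are above.

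Both called genes on chromosome X, Bcap31 and Ssr4, lie near the deleted gene, and no other gene of the 34 is on that chromosome. Slc6a8 spans chrX:73673150-73682502 on the plus strand. Bcap31 ends 3.68 kb beyond its 3′ end, on the opposite strand, and Ssr4 (chrX:73787028-73790830) starts 105 kb beyond it. A window of 250 kb on each side, chosen after these values had been seen, held 19 other genes of the table. Of these, 14 were tested and 13 are reported here. Among these 13, Bcap31 was the only gene called lower and Ssr4 the only gene called higher. Over all tested genes 7.25% were called lower and 2.90% higher, so that 1 lower of 13 is near that share. The count on the higher side rests on Ssr4 alone. Idh3g, which starts 130 bases from Ssr4 in the GENCODE annotation and runs away from it, was at 81.8 ± 2.87 FPKM (SD, n = 4) in KO and 87.0 ± 1.05 FPKM (SD, n = 3) in WT. Every KO animal was below every WT animal for Idh3g, which was not called. Its log2 fold change was -0.09 (95% interval -0.20 to 0.02, adjusted p = 0.29 with limma). That of Ssr4, across the shared 125 bases shown above, was 0.41. Srpk3, a protein kinase gene close to Idh3g, overlapped between genotypes, with an estimate of 0.35 on the log2 scale (adjusted p = 0.19 with limma). Whether these differences depend on the position next to the deletion was not tested.

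**Figure D3:**
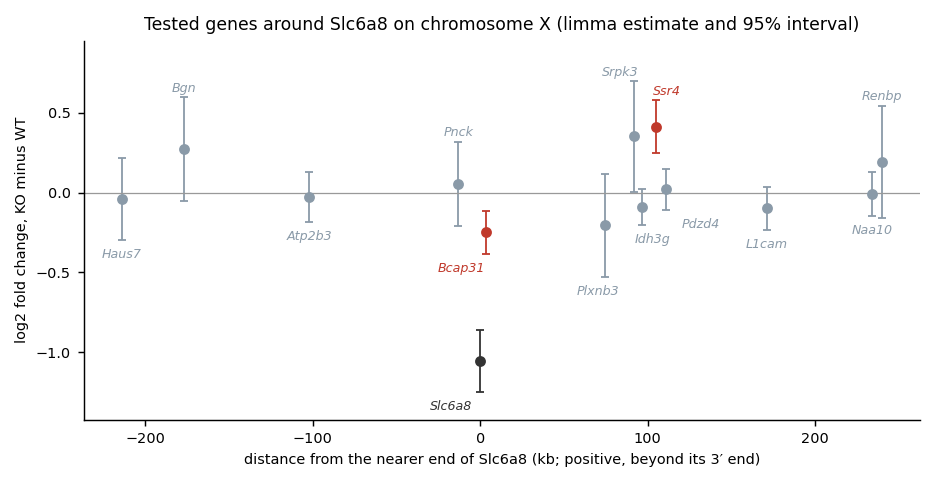
Log2 fold change (KO minus WT, limma) with its 95% interval for Slc6a8 and 13 of the 14 other tested genes within 250 kb, by distance in kb from the nearer end of Slc6a8, positive beyond its 3′ end. Bcap31 (-0.25) and Ssr4 (0.41), in red, have an adjusted p under 0.1; the genes in grey do not.

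Signal peptidase cuts with either of 2 catalytic subunits, Sec11a and Sec11c, and Sec11c fell while Sec11a was not called. Sec11c was at 42.2, 38.8, 43.9 and 40.9 FPKM in KO and at 45.5, 50.1 and 53.6 FPKM in WT animals. The highest KO animal was below the lowest WT animal. Averages were 41.5 ± 2.15 FPKM in KO (SD, n = 4) and 49.8 ± 4.09 FPKM in WT (SD, n = 3), a log2 fold change of -0.26 (standard error 0.069, adjusted p = 0.069 with limma). Sec11a was at 18.1, 17.1, 17.3 and 17.6 FPKM in KO and at 15.4, 18.0 and 17.9 FPKM in WT animals, which overlapped (0.04, 95% interval -0.11 to 0.19).
Spcs3 and Spcs2, noncatalytic subunits, were lower in every KO than in every WT animal but were not called. Spcs3 was at 41.6, 39.9, 38.4 and 41.9 FPKM in KO and at 58.3, 45.0 and 45.7 FPKM in WT animals (-0.29, adjusted p = 0.103 with limma), just past the threshold, with WT animal 1 far above the rest. Spcs2 was at 21.7, 21.6, 21.6 and 21.3 FPKM in KO and at 24.2, 22.3 and 22.7 FPKM in WT animals (-0.10, adjusted p = 0.28 with limma). Spcs1, a small accessory subunit, was at 60.8 ± 1.75 FPKM (SD, n = 4) in KO and 53.5 ± 9.01 FPKM (SD, n = 3) in WT (0.20, adjusted p = 0.23 with limma), and WT animal 3 had the highest value of all 7 animals.

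The OST genes held 3 of the 8 falls. Stt3a and Stt3b are the alternative catalytic subunits: Stt3a acts at the channel on entering chains, and Stt3b mostly on sites that were skipped. Krtcap2 and Ostc belong to the Stt3a form, Tusc3 to the Stt3b form, and Rpn1, Rpn2, Ddost and Dad1 to both. Krtcap2 (chr3:89245966-89249906) was at 72.0, 64.9, 69.3 and 71.1 FPKM in KO and at 86.1, 80.9 and 82.9 FPKM in WT animals. Both groups were tight and well apart. Averages were 69.3 ± 3.16 FPKM in KO (SD, n = 4) and 83.3 ± 2.60 FPKM in WT (SD, n = 3), a log2 fold change of -0.27 (standard error 0.055, adjusted p = 0.042 with limma). Rpn1 (chr6:88084482-88105304) was at 33.1, 32.0, 32.3 and 33.3 FPKM in KO and at 38.8, 36.3 and 40.9 FPKM in WT animals, without overlap. Its estimated log2 fold change was -0.24 (limma, standard error 0.056, adjusted p = 0.054).

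Stt3b (chr9:115242581-115310421) was at 33.2, 29.5, 31.0 and 30.3 FPKM in KO and at 35.4, 34.3 and 37.2 FPKM in WT animals. KO animal 0 came closest to the WT animals without reaching them. Its estimated log2 fold change was -0.20 (limma, standard error 0.059, adjusted p = 0.087). Stt3a was at 20.6, 17.8, 18.3 and 18.6 FPKM in KO and at 25.3, 27.4 and 19.6 FPKM in WT animals. WT animal 3 fell within the KO range, and the estimate of -0.34 (standard error 0.11), larger than that of Stt3b, missed the threshold (adjusted p = 0.104 with limma).
The remaining OST genes were not called. Tusc3, the most abundant of the 34 with a mean of 210.4 FPKM, was at 209, 204, 213 and 215 FPKM in KO and at 207, 199 and 227 FPKM in WT animals, which overlapped (-0.01, 95% interval -0.14 to 0.13). Rpn2, the partner of Rpn1, was at 38.9 ± 0.744 FPKM (SD, n = 4) in KO and 38.5 ± 2.98 FPKM (SD, n = 3) in WT (0.02). Ddost, which anchors the complex, was at 38.6 ± 1.91 and 38.3 ± 3.99 FPKM (0.01). Dad1, a small core subunit, was at 94.5 ± 2.53 and 85.2 ± 13.7 FPKM (0.16, adjusted p = 0.31 with limma), and Ostc at 23.6 ± 1.20 and 24.7 ± 3.51 FPKM (-0.06). All 5 of them overlapped between genotypes.

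By complex, the counts called lower and higher were 2 and 0 of 8 for SRP and its receptor (median log2 fold change -0.13), 2 and 0 of 8 for the Sec61 channel and its partners (-0.17), 0 and 1 of 4 for TRAP (0.02), 1 and 0 of 5 for signal peptidase (-0.10) and 3 and 0 of 9 for OST (-0.06). Over all tested genes 7.25% were called lower and 2.90% higher, and the median was -0.03. Every complex held genes that were not called, 25 of the 34 in all. At an unadjusted p under 0.05 with limma, the counts in the same order were 5 and 1, 4 and 1, 0 and 1, 2 and 0, and 4 and 0, for 15 lower and 3 higher of the 34. Of all 12988 tested genes, 16.8% were lower and 8.19% higher at that p, so that the 3 higher were near the share over all genes.

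A ratio of paralogs within an animal does not depend on how libraries are scaled to each other. The ratio of Sec11a to Sec11c was 0.429, 0.441, 0.393 and 0.431 in KO and 0.339, 0.359 and 0.334 in WT animals. All KO animals were above all WT animals, a log2 difference of 0.30 (standard error 0.050; two-sided exact permutation p = 0.0286, the floor of the design, and 0.0858 after Benjamini-Hochberg adjustment over the 3 ratios). Leaving out any 1 animal kept the difference between 0.28 and 0.33. The ratio of Stt3a to Stt3b was 0.620, 0.603, 0.590 and 0.615 in KO and 0.714, 0.799 and 0.526 in WT animals, with WT animal 3 below every KO animal (log2 difference -0.14, standard error 0.15, exact permutation p = 0.343). That of Sec61a1 to Sec61a2 was 0.826 ± 0.0144 (SD, n = 4) in KO and 0.823 ± 0.0885 (SD, n = 3) in WT animals, a log2 difference of 0.01 with a standard error of 0.078 (exact permutation p = 0.971). WT animals spread more than KO animals in these latter ratios, and in that of Sec11a to Sec11c they did not.

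**Figure D4:**
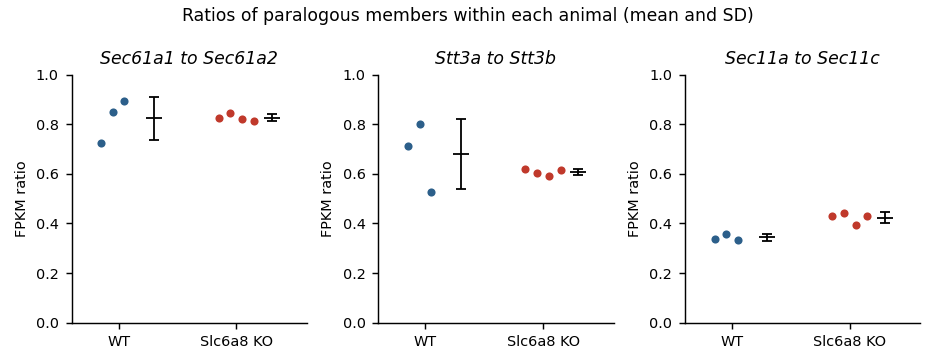
Ratio of the FPKM of 3 pairs of paralogous genes within each WT (blue) and KO (red) animal, with mean and SD beside the points and axes from 0. The KO animals lie above the WT animals for Sec11a to Sec11c (0.393 to 0.441 against 0.334 to 0.359), and the groups overlap in the other panels.

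How far the calls rested on WT animal 3 was measured by leaving it out. Then 16 of the 34 genes were called lower and 5 higher (limma), against 18.4% and 10.3% of all tested genes, and all 9 genes called with 7 animals were among the 21. The genes added on the lower side were Srp9, Srp19, Srp72, Sec61a2, Sec63, Tram1, Spcs3 and Stt3a, and on the higher side Srp14, Sec61g, Spcs1 and Dad1. The log2 fold change of Sec62 went from -0.42 to -0.54 (standard error 0.053) and that of Stt3a from -0.34 to -0.485 (standard error 0.071), while those of Bcap31, Sec11c, Rpn1 and Stt3b came closer to 0 (-0.198, -0.205, -0.199 and -0.17). Sec61g went from 0.53 to 0.83 (standard error 0.105) and Ssr4 from 0.41 to 0.49 (standard error 0.057).
Other animals moved the counts as well. Without KO animal 1, none of the 34 genes was called by limma, and of all 12981 genes tested in that fit 0.408% were called lower and 0.0847% higher. At an unadjusted p under 0.05, 12 of the 34 were lower and 1 higher, against 12.3% and 5.78% of all genes in that fit. Without KO animal 2 Ssr4 alone was called, and of all 12983 genes tested in that fit 166 were called lower and 57 higher. Without WT animal 2, the animal high in choroid plexus markers, Krtcap2, Rpn1 and Ssr4 were called (509 and 244 of all 12970 genes). Without WT animal 1 Bcap31, Sec11c and Ssr4 were called (167 and 80 of 12977). Krtcap2, Sec62, Stt3b and Ssr4 were called without KO animal 0 (450 and 164 of 12986). Krtcap2 and Ssr4 were called without KO animal 3 (254 and 88 of 12976). Ssr4 was called in 6 of the 7 fits that each left out 1 animal and Krtcap2 in 4. Sec62, Bcap31, Sec11c, Rpn1 and Stt3b were each called in 2, and Srpr and Srp68 in 1. All 9 kept their direction, and an unadjusted p under 0.05, in all 7 fits.

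**Figure D5:**
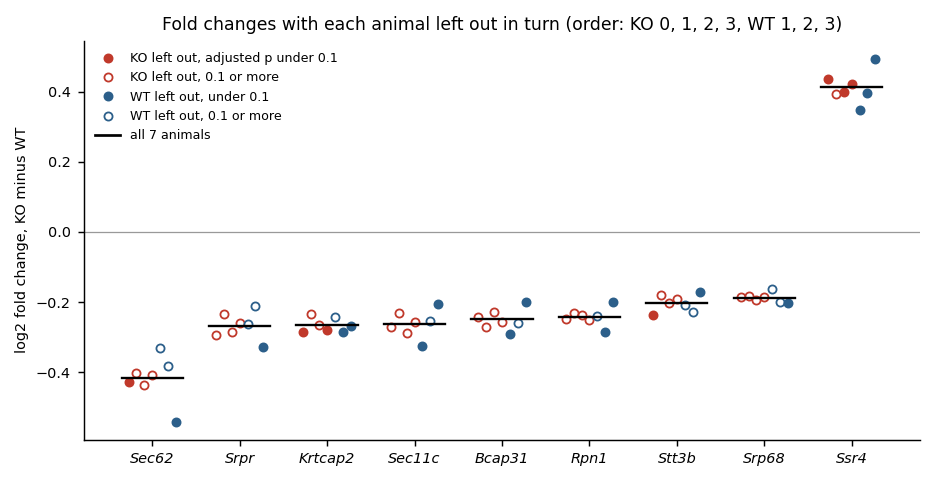
Log2 fold change (KO minus WT, limma) of the 9 called genes with each animal left out in turn; black lines give the fit with all 7 animals, red circles leave out a KO and blue circles a WT animal, and filled circles have an adjusted p under 0.1. No circle crosses 0, and only Ssr4 is filled in 6 of 7 fits, between 0.35 and 0.49.

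Transcript length moved with the genotype in these libraries, with the exception of WT animal 3. The slope of an animal's log2 deviation from the mean of all 7, per doubling of transcript length, was -0.03 to -0.01 in KO animals, and 0.03, 0.06 and -0.03 in WT animals 1 to 3. WT animal 3 thus lay with the KO animals. Length is that of a single annotated transcript per gene, the longest of those marked as principal where there are any. Of the 34 genes, 12 have an annotated transcript under 1500 bp, 6 of them higher in KO and with a median change of -0.01 on the log2 scale. The other 22 have a longer transcript, 6 of them higher and with a median of -0.12. Dad1 (3491 bp) and Sec61g (1862 bp) are among these 6, and whether cortex uses those transcripts was not tested. Spearman's rho between log2 fold change and length was -0.38 across the 34 genes and -0.175 across tested genes, which share the same 7 libraries. After the trend with length was taken out of each animal, 7 of the 34 genes were called lower and 1 higher (limma), against 5.10% and 4.44% of tested genes. Stt3b was the call lost (-0.15, adjusted p = 0.18 with limma). Ssr4, with a transcript of 765 bp, remained called at 0.32 (adjusted p = 0.035 with limma), and so did the short Krtcap2 (-0.30, adjusted p = 0.037) and Sec11c (-0.34, adjusted p = 0.037) as well as the longer Sec62 (-0.37, adjusted p = 0.053).

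Genes acting beside these complexes were taken from 4 lists of 72 symbols in all, of which 70 were tested. Among them 7 were called lower (10%, against 7.25% of tested genes) and 2 higher (2.86%, against 2.90%), and the median of their log2 fold changes was -0.03. In the assembly of the dolichol-linked sugar, 2 of 23 genes fell and 1 rose. They were Dhdds, a subunit of the enzyme that makes the dolichol chain (19.3 ± 0.864 FPKM in KO, n = 4, and 22.5 ± 1.46 FPKM in WT, n = 3; -0.22, adjusted p = 0.084 with limma), Alg3, a mannosyltransferase (-0.30, adjusted p = 0.099 with limma), and Dpm2, a subunit of dolichol-phosphate mannose synthase (38.8 ± 2.79 and 30.8 ± 4.95 FPKM; 0.34, adjusted p = 0.090 with limma). The groups of Dpm2 overlapped.
Among 11 other OST subunits and N-glycan trimming genes, 2 fell and 0 rose (limma), the same counts as at an unadjusted p under 0.05. Mlec, a lectin that binds freshly trimmed glycans and Rpn1, was at 22.6 ± 0.608 FPKM in KO (SD, n = 4) and 27.3 ± 2.23 FPKM in WT (SD, n = 3; -0.27, adjusted p = 0.058 with limma). Uggt1, the sensor that puts glucose back on unfolded glycoproteins, was at 8.98 ± 0.367 and 10.5 ± 0.0373 FPKM (-0.23, adjusted p = 0.067 with limma).
Of 24 genes for the insertion of membrane proteins, 0 fell and 1 rose. This was Get4, part of the complex that hands over tail-anchored proteins (25.0 ± 0.966 and 21.0 ± 1.497 FPKM; 0.25, adjusted p = 0.062 with limma). At an unadjusted p under 0.05, 4 of these 24 were lower and 3 higher, against 16.8% and 8.19% of all tested genes. Among 14 other translocation factors, of which 12 were tested, 3 fell and 0 rose (limma), and 4 were lower and 4 higher at an unadjusted p under 0.05. The falls were in Tram1l1, a homolog of Tram1 (13.3 ± 0.658 and 16.3 ± 0.921 FPKM; -0.29, adjusted p = 0.050 with limma), H13, the signal peptide peptidase that clears cut signal sequences (-0.22, adjusted p = 0.079 with limma), and Lrrc59, a ribosome-binding protein of the ER membrane (-0.18, adjusted p = 0.099 with limma).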

How the data were processed

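RNA of the cerebral cortex of 7 mice was sequenced as poly(A)-selected paired-end libraries, 1 per animal. The authors aligned the reads to mm10 with the Tuxedo protocol, kept reads placed uniquely on known exons or junctions with at most 2 mismatches, and deposited FPKM values per gene. The processing notes name Bowtie and Cuffnorm. FPKM are scaled to transcript length and mapped reads and are not counts, so counting error could not be computed and depth was only estimated in relative terms.

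Genes averaging 1 FPKM or more over the 7 animals were tested on log2(FPKM + 0.1) with limma 3.58.1 (R 4.3.3), on genotype alone, with a variance trend and Benjamini-Hochberg adjustment over all 12988 genes. Fold changes are on that log2 scale, which understates changes of weakly expressed genes, and calls are adjusted p under 0.1. The fit was tested on simulated data. Ratios were tested with exact permutation tests in Python 3.11.15. Positions and lengths are from GENCODE M21 (GRCm38): 23310 of the table's symbols matched a current symbol, 666 a synonym and 370 none, and 99.4% of tested genes had a length. The members and lists were chosen with earlier results of these data known. Named with every animal's value are the called genes, other genes without overlap between genotypes, the paralog pairs and the genes of highest and lowest mean. From the pathway lists, called genes are named. The genes around Slc6a8 were chosen after their values were seen, and 1 of them is not reported here. Groups and numbers come from the labels, which do not tie animals to litters. Alternatives changed the pseudocount, the filter, the scaling, a correction for transcript length, the variance trend, array weights, a block on the animal number and the animals included.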

Additional observations from a re-analysis of the deposited data

How the results depend on the processing

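Pseudocounts of 1 and 0.01 and filters at a mean of 0.1 or 5 FPKM kept the 9 calls. With 7 animals and gene-level FPKM, the adjusted p-values of the 9 calls lay between 0.032 and 0.087 (limma), and each of them was lost in at least 2 alternatives; the cause was not tested. Over 19 alternatives, Ssr4 was called in 17, Krtcap2 in 15, Sec62 in 13, Rpn1 in 12, Bcap31 in 10, Srp68 and Sec11c in 8, Srpr in 7 and Stt3b in 6, all 9 with the same direction in all 19. Slc6a8 was called in all 19. No correction for GC content was run.

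The counts below give lower first and higher second, beside 8 and 1 for the 34 genes, 941 and 377 for all tested genes, and 7 and 2 for the pathway lists. Without a filter on low values, with all 24346 genes tested, they were 2 and 0, 262 and 91, and 1 and 0 with limma, although 15 and 2 of the 34 had an unadjusted p under 0.05 (9.42% and 5.32% of all genes in that fit). After quantile normalization they were 3 and 2, 555 and 528, and 1 and 5. After upper quartile scaling they were 3 and 2, 463 and 741, and 1 and 6. After median centring they were 4 and 1, 527 and 490, and 2 and 2. The share of calls that were higher was thus 28.6% in the fit behind the results above, and 48.8%, 61.5% and 48.2% with these scalings. It was 46.6% after the length correction, which gave 662 and 577 for all genes and 2 and 4 for the pathway lists. The authors, also with limma and at the same adjusted p, counted more genes higher than lower in KO, unlike the fit used here. Without a variance trend the counts were 4 and 1, 625 and 300, and 3 and 1. With array weights they were 11 and 4, 1295 and 602, and 8 and 6. Under quantile normalization and upper quartile scaling, 9 of the 34 genes, not 14, were lower in every KO than in every WT animal. Under median centring 12 were. The share over all tested genes was counted only without these scalings (15.0%), so that the 9 and the 12 have no share to be set against.

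With the replicate block on the animal number, in which KO animal 0 has no partner and does not contribute, the counts were 1 and 1 (Sec62 and Ssr4), 410 and 166, and 2 and 0. Animals of the same number did not deviate together (correlations -0.08, 0.05 and -0.05), so the numbers were not read as pairs. Leaving out each animal in turn gave 0 to 16 lower and 0 to 5 higher among the 34, 53 to 2394 and 11 to 1342 among all genes, and 0 to 15 and 0 to 16 in the pathway lists. The extremes came without KO replicate 1 (fewest) and without WT replicate 3 (most). A length correction with WT replicate 3 left out, chosen after seeing the data, gave 13 and 4, 1679 and 1583, and 8 and 16.

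Log2 fold changes that turned sign were all within 0.11 of 0 and never called. The replicate block gave -0.0092 for Srp54a and -0.0085 for Ssr3. The length correction gave -0.10 for Sec61b and -0.0037 for Ssr2, and, with WT replicate 3 also left out, 0.070 for Srprb, -0.084 for Sec61b, 0.014 for Ssr1 and 0.027 for Tusc3. Upper quartile scaling gave 0.057 for Tusc3 and 0.0051 for Ostc, quantile normalization 0.0022 for Ostc, median centring 0.032 and array weights 0.019 for Tusc3. Leaving out each animal in turn, the ranges were -0.0092 to 0.073 for Srp54a, -0.13 to 0.018 for Srprb, -0.11 to 0.15 for Sec61b, -0.032 to 0.10 for Ssr2, -0.011 to 0.051 for Ssr3, -0.035 to 0.075 for Sec11a, -0.042 to 0.069 for Rpn2, -0.043 to 0.097 for Ddost, -0.045 to 0.049 for Tusc3 and -0.14 to 0.052 for Ostc.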
